A study of Mus musculus with 5 samples.

Results

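The genes described here are 44 genes of the endoplasmic reticulum (ER) that move new proteins into that compartment, fold them and remove those that fail to fold. They were chosen by name, as the rows of the deposited expression table that carry the symbol of a listed ER chaperone, folding enzyme, ER-associated degradation (ERAD) factor, stress sensor or subunit of the entry machinery. The list was drawn up with earlier results of these data known, so shares over it are a description. All 44 were found among the 24046 gene symbols of the table, and all 44 passed the filter on low values described with the first test. The study asked what loss of SYNCRIP, an RNA-binding protein, does to the transcripts of hematopoietic stem cells (HSCs). Bulk RNA sequencing was done on 3 WT libraries (WT 1, WT 2 and WT 3; Syncrip flox/flox, Mx1 Cre-) and 2 KO libraries (KO 2 and KO 3; Syncrip flox/flox, Mx1 Cre+). Both groups carried the floxed alleles, both had marrow transplanted into CD45.1 congenic mice, and both were given pIpC, an interferon inducer that switches on the Mx1 promoter. HSCs were collected 9 weeks after the transplant and 3 weeks after pIpC, with a sort for donor cells (CD45.2+) that were Lin-, Sca1+, cKit+, CD150+ and CD48-. The Mx1 promoter responds to interferon in many cell types, so the deletion was not limited to HSCs, and recipient cells were told from donor cells by their CD45 allele. The labels gave neither the age of the mice nor the number of animals behind a library, so p-values measure the spread between these 5 libraries.

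Secreted and membrane proteins enter the ER through the SEC61 channel, lose their signal peptide to signal peptidase, receive sugar chains from oligosaccharyltransferase and fold with the help of chaperones and disulfide isomerases. Proteins that stay unfolded are pulled back out and degraded by ERAD. When unfolded proteins build up, the sensors ATF6, IRE1 and PERK start the unfolded protein response (UPR), which raises transcription of many of these genes through short promoter elements bound by ATF6 and XBP1. HSCs make protein slowly, and their long-term function is known to be sensitive to disturbed protein folding.

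A promoter element known from genes of this kind is the ER stress response element (ERSE), and it is shown because ATF6 and XBP1 are known to act through it. ERSE was searched as CCAAT, then 9 bases of any kind, then CCACG. A related element (ERSE-II) was searched as ATTGG, 1 base of any kind and CCACG, and the core of another element (UPRE) as TGACGTGG. The search covered both strands of RefSeq windows (GRCm38.p6) that run from 250 bases before to 50 bases after each gene's start. Of the 44 members, 35 had such a window. ERSE was found in 9 of the 35 members (25.7%), against 37 of all 27025 genes with a window (0.137%). ERSE-II was found in 2 members (5.71%), against 0.0444% of those genes, and the UPRE core in 0 members, against 0.714%. Together 11 of 35 members (31.4%) held a match, against 0.884% of all genes with a window. The matches are given below with the strand that carries the element read 5′ to 3′, the fixed letters in capitals and the variable spacer in lower case.
Hspa5: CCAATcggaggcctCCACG
Hsp90b1, upstream: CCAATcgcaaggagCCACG
Hsp90b1, downstream: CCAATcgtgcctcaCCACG
Canx: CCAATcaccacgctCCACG
Calr: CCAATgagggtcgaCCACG
Dnajc3: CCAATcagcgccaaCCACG
Pdia6: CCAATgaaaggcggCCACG
Creld2: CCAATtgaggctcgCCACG
Derl3: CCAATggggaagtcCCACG
Syvn1: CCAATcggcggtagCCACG
Herpud1 (ERSE-II): ATTGGgCCACG
Dnajb11 (ERSE-II): ATTGGcCCACG

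The windows of Hspa5, Hsp90b1 and Canx are printed whole because Hspa5 is the best known gene with this element and Hsp90b1 and Canx are the members with a match whose KO values were lowest relative to WT. Each is written on the strand of the gene, and capitals mark the matches. The Hspa5 window is chr2:34771840-34772139 on the plus strand, the Hsp90b1 window chr10:86705395-86705694 on the minus strand and the Canx window chr11:50325624-50325923 on the minus strand.
Hspa5: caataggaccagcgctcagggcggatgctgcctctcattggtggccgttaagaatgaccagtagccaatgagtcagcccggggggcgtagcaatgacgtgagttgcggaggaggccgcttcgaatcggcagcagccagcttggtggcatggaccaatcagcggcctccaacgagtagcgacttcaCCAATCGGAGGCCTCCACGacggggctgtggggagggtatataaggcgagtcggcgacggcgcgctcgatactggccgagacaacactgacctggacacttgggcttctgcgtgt
Hsp90b1: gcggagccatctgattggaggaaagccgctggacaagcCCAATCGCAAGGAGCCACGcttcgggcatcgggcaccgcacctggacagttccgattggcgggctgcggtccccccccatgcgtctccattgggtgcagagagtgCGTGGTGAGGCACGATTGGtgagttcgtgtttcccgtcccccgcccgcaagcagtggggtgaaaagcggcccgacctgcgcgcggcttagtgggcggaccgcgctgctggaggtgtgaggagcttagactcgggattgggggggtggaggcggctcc
Canx: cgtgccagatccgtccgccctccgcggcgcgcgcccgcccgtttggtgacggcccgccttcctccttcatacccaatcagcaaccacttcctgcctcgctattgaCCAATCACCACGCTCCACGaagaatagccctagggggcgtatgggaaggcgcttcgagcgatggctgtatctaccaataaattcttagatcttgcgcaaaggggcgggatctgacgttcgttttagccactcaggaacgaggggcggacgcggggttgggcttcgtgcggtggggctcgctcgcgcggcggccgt
The Hspa5 match lay 65 to 47 bases before the start. Hsp90b1 held a match on the strand of the gene, 212 to 194 bases before the start, and a match on the opposite strand, 107 to 89 bases before it. The match in Canx lay 145 to 127 bases before the start. A match describes the letters in the window and was not tied to binding of any factor here.

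The libraries held 12539599 (KO 3) to 22779536 (WT 3) reads, with both KO libraries below the WT range in depth, and 14947 to 15740 genes were detected per library. Values are normalized read counts, that is reads divided by a size factor of the library. Syncrip (mm10 chr9:88447009-88482574, minus strand), the targeted gene, had 1944, 1440 and 1794 normalized counts in WT 1, WT 2 and WT 3, against 294 and 343 in the KO libraries. The KO libraries thus kept 18.5% of the WT mean, and the groups did not overlap (log2 fold change -2.43, SE 0.22, limma adjusted p = 0.0352). That call, though not the direction, was lost with no filter (adjusted p = 0.0503), with array weights (0.0595), after removal of the length and GC trend described further on (-1.47, adjusted p = 0.140) and without any 1 WT library (0.164 to 0.210). All 9 HSC markers examined (such as Kit, Slamf1 and Mecom) were detected in every library, at 0.0761% to 0.119% of all values in sum. The 10 neutrophil and myeloid markers (such as Mpo, Elane and S100a8) took 6.16% to 7.44% of all values in the WT libraries against 5.46% (KO 2) and 2.64% (KO 3), with none at 0 in any library. The 8 erythroid markers took 0.175% to 0.243% in the WT libraries and 0.16% and 0.115% in the KO libraries. The 10 adipocyte markers took 0.155% in KO 2 and at most 0.00391% in any other library, and Ucp1 and Cidea, at 0 in the other 4 libraries, were both present in KO 2. The 11 plasma and B cell markers, from cells rich in ER, took 0.00139% to 0.00429% with no separation of the groups, and the 9 stroma markers 0.00171% to 0.014%. The part of these other cells in the values of the ER genes was not tested. In bulk libraries, fewer cells of a type and less RNA per cell cannot be told apart.

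Summed over the 44 members, the ER genes held a smaller share of all values in both KO libraries than in any WT library. Their summed values made up 1.22%, 1.15% and 1.22% of all values in WT 1, WT 2 and WT 3, and 0.99% and 0.92% in KO 2 and KO 3. Such a sum is weighted toward members with many reads, such as P4hb, Calr, Hspa5 and Canx, and does not describe each gene. The median log2 fold change (KO against WT, on log2(value + 1)) was -0.19 over the 44 members and 0.02 over all 13661 genes tested. It was below 0 for 28 members (63.6%), and for 48.9% of all genes tested. Relative to the mean of the WT libraries, the median difference of the members was -0.12 in KO 2 and -0.24 in KO 3 on the log2 scale. Each WT library set against the other WT libraries gave 0.04, -0.15 and 0.10 for WT 1, WT 2 and WT 3. The median in KO 2 therefore lay inside the range among WT libraries, and that in KO 3 outside it.

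Both KO values lay below every WT value for 16 of the 44 members (36.4%), against 23.2% of all genes tested. The list was drawn up with earlier results known, so this comparison is a description. Both lay above every WT value for 3 members (6.82%; Sdf2l1, Sec61b and Ddost), against 23.9% of all genes tested, and the groups overlapped for the other 25. In 14 of the 16 members below the WT range KO 3 was lower than KO 2, the exceptions being Hspa5 and Dnajc3. With KO 3 alone, 25 members lay below and 9 above the WT range, where the shares over all genes tested were 38.8% and 40.1%. With KO 2 alone the counts were 18 and 6, where they were 31.2% and 32.7%. Without WT 2, 22 members lay below the WT range in both KO libraries and 7 above it, where 29% and 29.5% of all genes did.

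**Figure D1:**
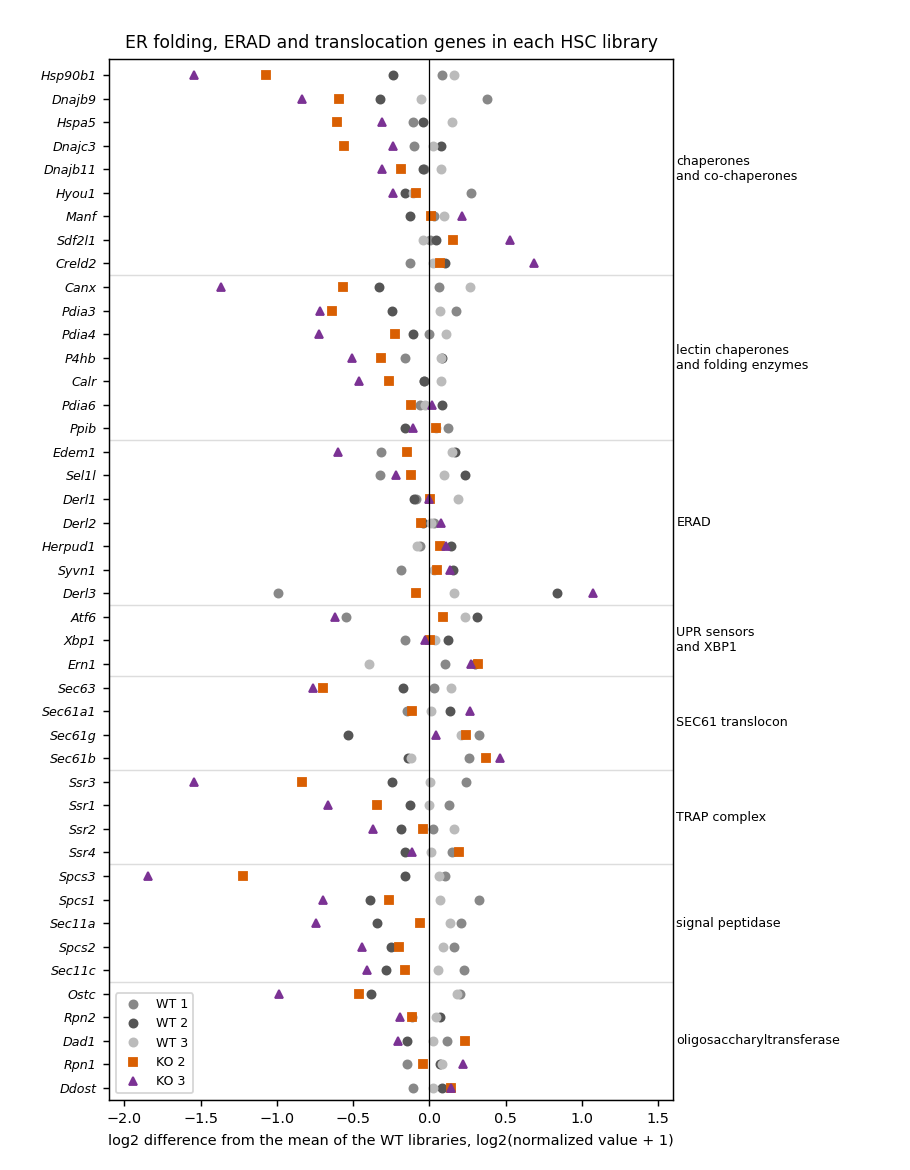
Log2 difference of each library from the mean of the 3 WT libraries (x axis, on log2 of the normalized value + 1) for the 44 ER genes (rows, grouped by role). Grey circles are WT 1, WT 2 and WT 3, orange squares KO 2 and purple triangles KO 3. Hsp90b1, Canx, Pdia3, Sec63, Ssr3 and Spcs3 have both KO libraries to the left of every WT library, KO 2 of Canx by the least, while none of the 7 ERAD genes has both KO points on the same side of all WT points.

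**Figure D2:**
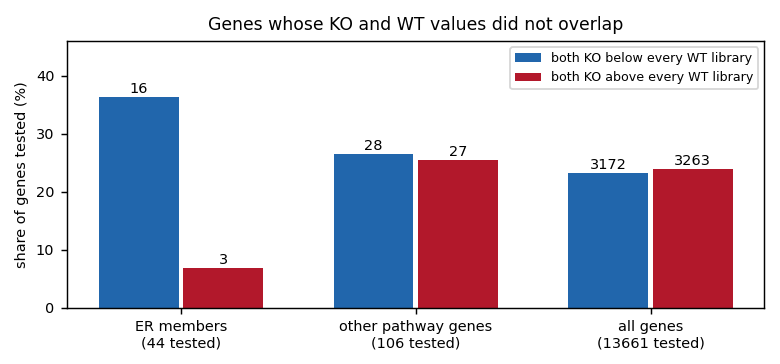
Share of genes tested (y axis, %) with both KO values below every WT value (blue) or above every WT value (red), with the number of genes over each bar. The ER genes show 16 below and 3 above, where the other pathway genes and all genes tested have similar shares on both sides.

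No member passed the test planned for normalized values. Limma with a mean-variance trend, run on the genes that reached 10 normalized counts in 2 libraries or more and adjusted over all of them by Benjamini-Hochberg, called 0 of 44 members at an adjusted p under 0.05, where it called 0.00732% of all genes tested. An unadjusted p under 0.05 was reached by 11 of the 44 members, close to the 27.8% of all genes tested that reached it. The lowest adjusted p of a member was 0.0815. EdgeR (quasi-likelihood, on reads recovered from the values) also called 0 (0.0146% of all genes tested), with 12 members at an unadjusted p under 0.05, where 27.2% of all genes were. DESeq2, the tool of the study, run on the same reads, called 6 of the 43 members it gave an adjusted p (13.95%), against 19.3% of all genes it tested. All 6 were lower in the KO libraries, where 9.81% of all genes were called lower and 9.54% higher. They were Canx, Hsp90b1, Pdia3, Sec63, Spcs3 and Ssr3, and the same 6 had a limma adjusted p under 0.1, where 11.2% of all genes did (6.47% lower). Without KO 2, the library with adipocyte transcripts, limma called 10 members (22.7%), 9 lower and 1 higher, against 26.6% of all genes tested (14.4% lower and 12.2% higher), in a fit that assumes KO 3 varies as the WT libraries do. Without KO 3 it called 0, against 0.082%, with 8 at an unadjusted p under 0.05, where 14.6% of all genes were.

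Among the chaperones and co-chaperones, 5 of 9 had both KO values below the WT range and 1 above it, where 23.2% and 23.9% of all genes did. The median log2 fold change of this role was -0.25 (-0.10 without the length and GC trend). Each role holds 3 to 9 genes, so counts by role are a description. For every role the shares over all genes are those just given, or 18.2% and 16% without the trend. Hsp90b1 (mm10 chr10:86690209-86705509, minus strand), which encodes the HSP90 of the ER lumen, had 11396, 9127 and 12064 normalized counts in WT 1, WT 2 and WT 3, and 5133 and 3690 in KO 2 and KO 3. Both KO libraries were far below the lowest WT library, and KO 3 was the lower of them. On average there were 10862 ± 1540 (SD, n = 3) in WT and 4411 ± 1020 (SD, n = 2) in KO libraries, for a log2 fold change of -1.31 (SE 0.21; limma adjusted p = 0.0815, DESeq2 adjusted p = 1.026e-05). Its adjusted p spanned 1.026e-05 to 0.286 over 13 alternatives, and its log2 fold change from -1.55 to -0.82. Hspa5, which encodes BiP, the main HSP70 of the ER and a regulator of the stress sensors, had 13331, 13943 and 15942 in the WT libraries, and 9416 and 11557 in KO 2 and KO 3. The groups did not overlap, with KO 2 the lowest, but the difference passed no test (log2 fold change -0.46, SE 0.18; limma adjusted p = 0.147, over alternatives 0.0727 to 0.775). After subtraction of the trend with transcript length and GC percentage, a step described further on, the value was -0.11 (SE 0.18) and the groups overlapped.

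Dnajb9, Dnajc3 and Dnajb11, which encode J-domain co-chaperones that set the ATPase cycle of BiP, lay below the WT range in both KO libraries without passing a test. Dnajb9 had a log2 fold change of -0.71 (SE 0.34), Dnajc3 of -0.40 (SE 0.18) and Dnajb11 of -0.25 (SE 0.17). With that trend removed, Dnajb9 was at 0.02 (SE 0.27) and Dnajc3 at 0.11 (SE 0.20), both overlapping WT, while Dnajb11 was at -0.26 (SE 0.13) and stayed below the WT range. Hyou1, which exchanges the nucleotide of BiP, overlapped between groups (-0.16, SE 0.21). The other 3 members of this group had positive fold changes. Sdf2l1, a cofactor of BiP, had 2472, 2542 and 2396 in the WT libraries and 2749 and 3567 in the KO libraries. Its KO values were both above the WT range, by little in KO 2 (0.34 on the log2 scale, SE 0.18; limma adjusted p = 0.248), and overlapped WT at -0.10 (SE 0.14) with the trend removed. Creld2, an ER protein with isomerase activity (0.38, SE 0.23), and Manf, a secreted partner of BiP (0.11, SE 0.18), overlapped.

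All 7 lectin chaperones and folding enzymes had a log2 fold change below 0, with a median of -0.41 (-0.27 without KO 3). Of the 7, 5 had both KO values below the WT range, where 23.2% of all genes tested did. Canx (mm10 chr11:50293961-50325673, minus strand), which encodes the membrane-bound lectin chaperone calnexin, had 14859, 11307 and 17111 in the WT libraries and 9592 and 5501 in KO 2 and KO 3. The KO values did not reach the lowest WT value, and KO 3 was much lower than KO 2. The log2 fold change came to -0.97 (SE 0.27; limma adjusted p = 0.0891, DESeq2 adjusted p = 0.0146, over alternatives 0.00711 to 0.373). With the trend removed Canx was at -0.37 (SE 0.19) and overlapped, KO 2 lying above WT 2. Pdia3 (mm10 chr2:121413775-121438687, plus strand), the disulfide isomerase that works with calnexin and calreticulin, had 15524, 11615 and 14442 in the WT libraries and 8830 and 8376 in the KO libraries. Here the KO libraries were close to each other and below WT 2, the lowest WT library (log2 fold change -0.68, SE 0.19; limma adjusted p = 0.0874, DESeq2 adjusted p = 0.00839, over alternatives 0.00839 to 0.377).

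P4hb, the protein disulfide isomerase itself and the member with the most reads, had 18168, 21498 and 21323 in the WT libraries and 16286 and 14224 in the KO libraries. The groups did not overlap, and the log2 fold change of -0.41 (SE 0.18) passed no test (limma adjusted p = 0.175, over alternatives 0.0867 to 0.502). Calr, the soluble lectin chaperone calreticulin (-0.37, SE 0.17), and Pdia4, another isomerase (-0.48, SE 0.20), were also below the WT range in both KO libraries. Pdia6 (-0.05, SE 0.16) and Ppib, the proline isomerase cyclophilin B (-0.03, SE 0.17), overlapped between groups. Without the trend, 5 of the 7 lay below the WT range (18.2% of all genes did), Calr, Pdia3, Pdia4, P4hb and Ppib.

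All 7 ERAD genes overlapped between genotypes, where both KO values lay beyond the WT range for 47.1% of all genes tested. The median log2 fold change of the ERAD genes was 0.01, with a range from -0.37 (Edem1) to 0.49 (Derl3). Derl1, a membrane component of the export route and the ERAD gene with the most reads, had 4003, 3971 and 4833 in the WT libraries and 4271 and 4242 in the KO libraries. The KO values sat inside the WT range, and the log2 fold change was 0.00 (SE 0.17, 95% limits -0.39 and 0.39). The components of the ubiquitin ligase route were at 0.09 (SE 0.18) for Syvn1, the ligase HRD1, -0.17 (SE 0.21) for its adaptor Sel1l and 0.09 (SE 0.17) for Herpud1. Derl2 was at 0.01 (SE 0.18). Derl3, with 10 to 37 reads per library, was too low for a firm value (SE 0.82). The overlap of the ERAD genes depended on the length and GC trend. With it removed, Syvn1 (-0.44, SE 0.16) and Herpud1 (-0.10, SE 0.14) lay below the WT range in both KO libraries, Derl2 (0.58, SE 0.18) lay above it, and the other 4 overlapped. None of the 3 passed the test.

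The UPR sensors and XBP1 overlapped as well. Xbp1, whose mRNA is spliced by IRE1 to give the active factor, had 3841, 4650 and 4398 in the WT libraries and 4284 and 4189 in the KO libraries. The log2 fold change was -0.02 (SE 0.17, 95% limits -0.40 and 0.37; limma adjusted p = 0.959), and a value per gene holds no account of the spliced form. Xbp1 without the trend was at -0.20 (SE 0.14; limma adjusted p = 0.484), with both KO values below the WT range, KO 2 by very little. Atf6 had 609, 1100 and 1045 in the WT libraries and 947 and 579 in the KO libraries. WT 1 and KO 3 were the low libraries, so the order did not follow genotype (-0.26, SE 0.33; limma adjusted p = 0.620). Ern1, which encodes IRE1, had 515, 590 and 364 in the WT libraries and 600 and 580 in the KO libraries. WT 2 lay between the KO libraries, and the log2 fold change came to 0.30 (SE 0.27; limma adjusted p = 0.490).

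**Figure D3:**
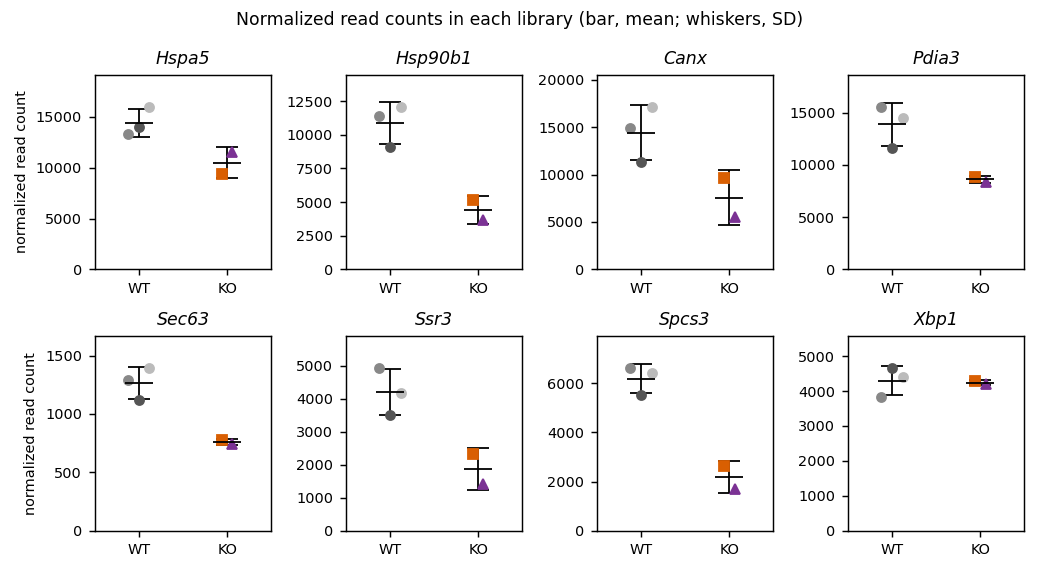
Normalized read count (y axis, from 0) of 8 ER genes in each library, by genotype (x axis; grey circles WT, orange square KO 2, purple triangle KO 3), with the mean as a bar and the SD as whiskers (n = 3 WT and n = 2 KO). Hspa5, Hsp90b1, Canx, Pdia3, Sec63, Ssr3 and Spcs3 have both KO libraries below every WT library, while the KO values of Xbp1 sit inside the WT range.

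In the entry machinery, the SEC61 translocon had 1 member below the WT range in both KO libraries and 1 above it. Sec63 (mm10 chr10:42761496-42832514, plus strand), the partner that recruits BiP to the channel, had 1290, 1121 and 1391 in the WT libraries and 779 and 744 in the KO libraries. The KO libraries agreed closely and lay below every WT library (log2 fold change -0.73, SE 0.20; limma adjusted p = 0.0860, DESeq2 adjusted p = 0.00949, over alternatives 0.00949 to 0.485). Sec61a1, the channel itself, had 6809, 8273 and 7591 in the WT libraries and 6961 and 9068 in the KO libraries. KO 2 was inside the WT range and KO 3 above it (0.08, SE 0.19; limma adjusted p = 0.809). Sec61b, a small subunit, had 1508, 1142 and 1161 in the WT libraries and 1629 and 1740 in the KO libraries. Both KO values were above the WT range, without passing a test (0.42, SE 0.20; limma adjusted p = 0.210, over alternatives 0.174 to 0.494). Sec61g, the other small subunit, overlapped (0.14, SE 0.35). Without the trend none of the 4 overlapped, where 18.2% of all genes lay below the WT range and 16% above it. Sec63 (-0.25, SE 0.17) and Sec61a1 (-0.20, SE 0.14), which thereby changed sign, lay below the WT range, and Sec61b (0.40, SE 0.17) and Sec61g (0.58, SE 0.27) above it, none of them past the test.

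The translocon-associated protein (TRAP) complex sits beside the channel and helps certain proteins through. Ssr3 (mm10 chr3:65379655-65392623, minus strand), its gamma subunit, had 4926, 3508 and 4184 in the WT libraries and 2331 and 1426 in the KO libraries. Both KO values were far below the lowest WT value (log2 fold change -1.19, SE 0.25; limma adjusted p = 0.0815, DESeq2 adjusted p = 0.0012, over alternatives 0.0012 to 0.286), and they stayed below the WT range after the trend was removed (-0.48, SE 0.15). Ssr1, the alpha subunit, had 6481, 5434 and 5906 in the WT libraries and 4659 and 3739 in the KO libraries, again with no overlap (-0.51, SE 0.18; limma adjusted p = 0.121, over alternatives 0.0350 to 0.717). With the trend removed Ssr1 was at -0.12 (SE 0.15) and overlapped. The other two subunits overlapped between groups, Ssr2 at -0.21 (SE 0.19) and Ssr4 at 0.04 (SE 0.19). With the trend removed Ssr2 was at -0.58 (SE 0.18) with both KO values below the WT range, and Ssr4 was at -0.27 (SE 0.16) and overlapped.

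All 5 signal peptidase genes had a log2 fold change below 0 (median -0.40, but -0.70 without KO 2 and -0.20 without KO 3), but only Spcs3 was outside the WT range in both KO libraries. Spcs3 (mm10 chr8:54520433-54529998, minus strand), an accessory subunit, had 6613, 5516 and 6431 in the WT libraries and 2646 and 1712 in the KO libraries. The KO mean was 35.2% of the WT mean, the lowest share of any member, and both KO libraries were far from every WT library (log2 fold change -1.53, SE 0.22, 95% limits -2.03 and -1.04; limma adjusted p = 0.0815, DESeq2 adjusted p = 6.394e-07, over alternatives 6.394e-07 to 0.286). Spcs2, the subunit with the next most reads in WT libraries, had 6459, 4833 and 6131 in the WT libraries and 5008 and 4246 in the KO libraries. WT 2 was below KO 2, so the groups overlapped (-0.32, SE 0.19; limma adjusted p = 0.297). The catalytic subunits Sec11a (-0.40, SE 0.27) and Sec11c (-0.28, SE 0.21) and the accessory subunit Spcs1 (-0.48, SE 0.25) overlapped too, with WT 2 the lowest WT library for each. This too depended on the trend. With it removed Spcs1 (-0.56, SE 0.20) and Sec11c (-0.15, SE 0.14) joined Spcs3 below the WT range, and Spcs2 and Sec11a overlapped. Spcs3 itself was then at -0.78 (SE 0.13), and Hsp90b1, at -0.82 (SE 0.14), was the lowest member.

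Oligosaccharyltransferase adds the first sugar chain to a new protein, and its genes had a median log2 fold change of 0.01, which turned to -0.20 without KO 2 and to -0.25 with the trend removed. Ostc, a subunit that ties the enzyme to the channel, had 2127, 1422 and 2097 in the WT libraries and 1345 and 932 in the KO libraries. KO 2 was just below WT 2 and KO 3 well below it (-0.72, SE 0.25; limma adjusted p = 0.119, over alternatives 0.0287 to 0.449). Rpn1, a scaffold subunit, had 9888, 11493 and 11618 in the WT libraries and 10639 and 12786 in the KO libraries, with KO 2 inside the WT range and KO 3 above it (0.09, SE 0.18). Ddost had 9699, 11081 and 10599 in the WT libraries and 11525 and 11498 in the KO libraries. Both KO values were above the WT range by a small margin (0.14, SE 0.16; limma adjusted p = 0.592), and with the trend removed both were below it (-0.25, SE 0.14). Rpn2 was slightly below the WT range in both KO libraries (-0.16, SE 0.16), and Dad1 overlapped (0.01, SE 0.20). Without the trend Ostc (-0.30, SE 0.15) and Rpn2 (-0.35, SE 0.14) were below the WT range with Ddost, Dad1 was above it (0.27, SE 0.15), and Rpn1 overlapped.

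The members spanned a wide range of levels per transcript length. With values divided by the length of the gene's longest transcript model and scaled to a common total, Calr was the highest in the WT libraries at 1031 ± 21.0 (SD, n = 3). P4hb followed at 835 ± 86.6, then Pdia3 at 586 ± 73.3 and Ddost at 580 ± 54.1, and the last pair did not differ beyond their spread. Dnajb9 (11.6 ± 2.86), Ern1 (8.35 ± 2.31) and Derl3 (1.80 ± 1.13) were the lowest. A gene whose longest model is far longer than its main transcript, such as Ssr1 at 9333 bases, is placed too low on this scale.

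Among the members, the fold change went with the GC content of the transcript, a property that the choice of genes did not use. Across the 44 members the log2 fold change and the GC content of the longest transcript had a Pearson's r of 0.723 and a Spearman's rho of 0.691, with all points taken from the same 5 libraries. Over the 13015 tested genes with a known GC content r was 0.549. Within the members r was 0.649 for KO 2 and 0.711 for KO 3 against the WT mean, and -0.336, 0.452 and -0.237 for WT 1, WT 2 and WT 3, each against the other WT libraries.

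The 22 members with the lower GC content (40.2% to 49.2%) included all 6 genes called by DESeq2 (27.3%, against 16.8% of the other tested genes in that GC range). Among those with the higher GC content DESeq2 called 0, against 9.05% of the other genes. Of the 22 with the lower GC content, 12 lay below the WT range in both KO libraries (54.5%) and 0 above it, and their median log2 fold change was -0.43. The other tested genes in that GC range gave 42.0% and 6.85%, with a median of -0.36. Of the 22 members with the higher GC content (49.3% to 57.4%), 4 lay below (18.2%) and 3 above (13.6%), with a median of 0.06. The other genes in that range gave 7.93% and 30.8%, with a median of 0.21. Within the TRAP complex the subunits outside the WT range, Ssr3 and Ssr1, had a GC content of 40.8% and 44.6%, and those that overlapped, Ssr2 and Ssr4, 55.7% and 55.1%.

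Once the linear dependence of the values on log2 transcript length and GC percentage had been subtracted library by library, 20 members lay below the WT range in both KO libraries (45.5%), against 18.2% of all genes, and 4 above it (9.09%; Derl2, Sec61b, Sec61g and Dad1), against 16% of all genes. Of the 20, 11 were also among the 16 below the range before the trend was removed, namely Hsp90b1, Dnajb11, Calr, Pdia3, Pdia4, P4hb, Sec63, Ssr3, Spcs3, Ostc and Rpn2. The log2 fold change was below 0 for 30 members (68.2%), and for 51.5% of all genes. The median over the members was -0.14, and -0.02 over all genes tested. The corrected log2 fold change was -0.82 (SE 0.14) for Hsp90b1, -0.78 (SE 0.13) for Spcs3, -0.48 (SE 0.15) for Ssr3, -0.42 (SE 0.15) for Pdia3, -0.37 (SE 0.19) for Canx and -0.25 (SE 0.17) for Sec63. P4hb, of higher GC content (53.8%), went the other way, to -0.68 (SE 0.16). No member was called in this fit (lowest limma adjusted p = 0.143, with 12 at an unadjusted p under 0.05, where 16.1% of all genes were), nor was any other gene (0% of all genes tested). The trend was estimated from the same libraries, and whether it arose in the preparation of the libraries or in the cells was not tested.

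**Figure D4:**
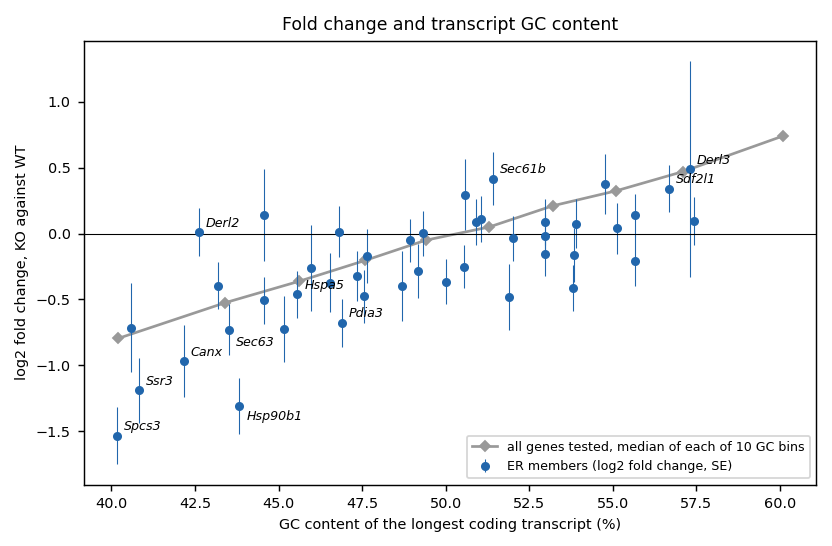
Log2 fold change of the 44 ER genes (y axis; blue points with the SE as whiskers) against the GC content of the longest transcript (x axis, %), with the median of all genes tested in 10 GC bins as the grey line. The line runs from -0.80 at 40.2% to 0.74 at 60.1%, and Hsp90b1, Spcs3 and Ssr3 lie below it by more than their SE.

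Members with a match to a stress element were set beside those with a window and no match, as a description. The search took exact letters only, so a window with no match may still hold a variant of an element. The 11 members with an ERSE or ERSE-II match had a median log2 fold change of -0.25, with 6 below the WT range in both KO libraries (54.5%; 23.2% of all genes) and 0 above it (23.9% of all genes). The 24 members with a window and no match had a median of -0.16, with 8 below (33.3%) and 3 above (12.5%). DESeq2 called 2 members with a match (Canx and Hsp90b1; 18.2%) and 3 without (12.5%), against 19.3% of all genes. With the length and GC trend removed the medians were -0.11 with a match and -0.12 without. The fold changes within the first set spanned the range from -1.31 for Hsp90b1, with its pair of matches, to 0.49 for Derl3, and Syvn1 (0.09) and Herpud1 (0.09) sat near 0. Spcs3, the member furthest from WT before the trend was removed, had no window in the table used here.

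**Figure D5:**
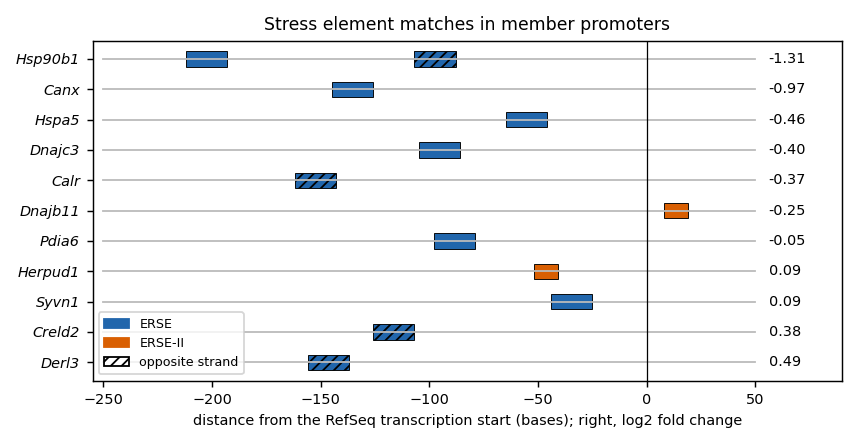
Position of ERSE (blue) and ERSE-II (orange) matches relative to the transcription start (x axis, bases) in the 11 member promoters that hold 1 or more, with the opposite strand hatched and the log2 fold change of the gene at the right. Genes are ordered by fold change, from -1.31 for Hsp90b1 to 0.49 for Derl3. Only promoters with a match are drawn.

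The other genes of the pathway, 109 factors of folding, ERAD, the UPR, the signal recognition particle, insertion and glycosylation, of which 106 passed the filter, lay on both sides of the WT range in similar numbers. Both KO values lay below the WT range for 28 (26.4%) and above it for 27 (25.5%), near the shares over all genes, and the median log2 fold change was -0.11. Limma called 0 of the 106, with 34 at an unadjusted p under 0.05, where 27.8% of all genes tested were. EdgeR also called 0, with 34 likewise, where 27.2% of all genes were. DESeq2 called 23 of 104 (22.1%), 15 lower and 8 higher, where it called 19.3% of all genes (9.81% lower and 9.54% higher). Of the 10 subunits of the ER membrane complex (EMC), which inserts membrane proteins and was tallied after its values were seen, 2 lay below the WT range (Emc2 and Mmgt1), 4 above it (Emc6, Emc8, Emc9 and Emc10) and 4 overlapped, and DESeq2 called 2 lower and 3 higher. Emc2 had a log2 fold change of -1.50 (SE 0.42; DESeq2 adjusted p = 0.0163), while Emc10 was at 0.88 (SE 0.21; DESeq2 adjusted p = 0.00241) and Emc8 at 0.74 (SE 0.18; DESeq2 adjusted p = 0.00425). None of these was called by limma. With the length and GC trend removed Emc2 was at -0.81 (SE 0.26), Emc8 at 0.68 (SE 0.16) and Emc10 at 0.12 (SE 0.14).

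The other factors furthest below the WT range were Wfs1, Tmx3, Tmx1 and Srp54b. Wfs1, an ER membrane protein that restrains ATF6, was low throughout, with 93.2, 72.9 and 81.4 normalized counts in the WT libraries and 14.4 and 25.8 in the KO libraries (log2 fold change -2.03, SE 0.53; limma adjusted p = 0.0820). Both KO libraries were far below the WT range. The thioredoxin-related membrane proteins Tmx3 (-1.69, SE 0.28) and Tmx1 (-1.68, SE 0.32) were likewise outside it. Srp54b, a subunit of the signal recognition particle, was at -1.45 (SE 0.46), but its near-identical copy Srp54a was at 0.66 (SE 0.52), and reads can be split between them, so that value is uncertain. Above the WT range were Fkbp11, a proline isomerase (0.96, SE 0.37), Tmub1, an ERAD factor (0.85, SE 0.24), and Sgta, which handles tail-anchored proteins before insertion (0.74, SE 0.23). With the trend removed Fkbp11 was at 0.67 (SE 0.32), Tmub1 at 0.28 (SE 0.19) and Sgta at 0.08 (SE 0.15), and on the other side Wfs1 was at -2.61 (SE 0.55), Tmx1 at -0.97 (SE 0.20), Tmx3 at -0.58 (SE 0.17) and Srp54b at -0.91 (SE 0.40). Eif2ak3, which encodes the sensor PERK and was added after its value was seen, overlapped between groups (-0.22, SE 0.24).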

How the data were processed

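The labels gave 3 WT and 2 KO libraries of sorted HSCs, made with a SMART-Seq v4 low-input kit. The submitters' processing notes name STAR, featureCounts, DESeq2 and mm10, with no versions, and the use of strand is not given in the sources used here. The authors deposited a normalized signal for 24046 genes, in which reads were scaled by a size factor per library. Positive values fell on multiples of a step in each library (tolerance 0.05), so whole reads were recovered for 100% of them. The authors' own comparison, a table of log2 fold changes with raw and adjusted p-values, was not used.

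The 13661 genes that reached 10 in 2 libraries or more were tested with limma 3.58.1 (lmFit, eBayes with trend) on log2(value + 1), with no covariate and Benjamini-Hochberg adjustment. This scale understates changes of low genes. EdgeR 4.0.16 and DESeq2 1.42.0 ran on the recovered reads (R 4.3.3). Other alternatives were a pseudocount of 10, no filter, TMM scaling, array weights, the replicate number as a block, leaving out each library, and removal of a length and GC trend (longest GENCODE M21 transcript). Scripts were tested on simulated data. Per-library values are given for the sensors, the member with the highest mean in each role, members called by any tool, and the 6 highest and lowest fold changes outside the WT range. The members and lists were chosen with earlier results of these data known. No molecular identifiers were counted, so read numbers overstate the number of independent molecules.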

Additional observations from a re-analysis of the deposited data

How the results depend on the processing

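The count of ER genes at an adjusted p under 0.05 was 0 with limma and stayed 0 with a pseudocount of 10, with no filter, with TMM scaling, with edgeR, with array weights, with a replicate block and after removal of the length and GC trend. It was 6 with DESeq2 and 6 at a limit of 0.1, and ran from 0 to 10 when each library was left out, with 10 without KO 2 and 0 in each other case. The count of other pathway genes was 23 with DESeq2 and 17 at a limit of 0.1, and ran from 0 to 31 (31 without KO 2). Leaving out each library gave 16 to 25 members below the WT range and 3 to 9 above it (7 without WT 2, 9 without KO 2 and 6 without KO 3).

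Syncrip kept its direction but not its call with no filter (-2.43, adjusted p = 0.0503), with array weights (-2.42, adjusted p = 0.0595), after removal of the trend (-1.47, adjusted p = 0.140) and without any 1 WT library, while leaving out each library gave -2.55 to -2.32 on the log2 scale. The cause was not tested.

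The median of the members ran from -0.24 to -0.12 over all alternatives and was -0.20 with the replicate block. That of chaperones was -0.10 and that of oligosaccharyltransferase -0.25 after removal of the trend. Leaving out each library gave -0.27 to -0.19 for chaperones, -0.51 to -0.27 for lectin chaperones and folding enzymes, -0.70 to -0.20 for signal peptidase, -0.52 to -0.19 for TRAP and -0.20 to 0.028 for oligosaccharyltransferase. Of 20 named members, 13 kept their direction throughout. Derl1 was at -0.019 with TMM scaling, -0.024 with edgeR, -0.0042 with DESeq2, -0.040 with array weights and -0.042 with the block. With each library left out, Derl1 ran from -0.047 to 0.094, Xbp1 from -0.094 to 0.044, Atf6 from -0.62 to 0.092, Sec61a1 from -0.11 to 0.27 and Rpn1 from -0.044 to 0.22. After removal of the trend Atf6 was at 0.029, Sec61a1 at -0.20, Sdf2l1 at -0.10 and Ddost at -0.25. Deviations of same-numbered libraries from their group means had correlations of -0.06 and -0.18. With 2 KO libraries the deviations of KO 2 and KO 3 mirror each other, so these values cannot decide whether libraries were paired. The block changed no call of a member.

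With 2 KO libraries, and KO 3 at 12539599 reads the shallowest, 95% limits on a single member were wide, as for Derl1 at -0.39 to 0.39.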
